A study of Mus musculus with 8 samples.

Results

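Genes of mucosal defence and of secretory, airway-type epithelium were followed through mouse thyroid follicular cell organoids (TFCOs), thyroid tissue and lung tissue. The genes were LTF, LCN2, PIGR, GABRP, SEMA3C, MUC1, MUC4, MUC16, AGR2 and CCL20, as spelled in the table, which lists gene symbols in capitals. They were chosen by name with their values in these same libraries known, so their levels, and whether they passed in fits over all genes, are given as a description, and no p is given for them. Of the 10 genes, 8 were measured among the 16119 genes of the table, and all 8 passed the filter on low values, which asked for 2 libraries with a minimum of 10 normalized counts. Muc4 and Muc16 were not analysed here.

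RNA of 8 libraries was sequenced, 2 in each of 4 groups. TFCOs are three-dimensional cultures grown from dissociated thyroid cells in basement membrane extract. Early and late passages of lines mThy14 and mThy16 were compared with thyroid tissues 1 and 2 and lung tissues 1 and 2. All samples were wild type C57BL/6 and untreated, and the methods name female mice as the source of the organoids. TFCO medium held EGF, FGF, R-spondin, forskolin, which raises cyclic AMP, and an inhibitor of TGF-beta signalling, and culture cannot be told apart from origin in any difference between TFCOs and tissue. The cells of 1 thyroid were plated together, and each line is 1 culture, so early and late libraries of a line are not independent samples. Nothing in the labels says whether the tissues came from separate animals, so p-values measure only the spread between these samples, which may be technical.

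Wet epithelia defend themselves by secretion. Surface and gland cells release iron-binding and antimicrobial proteins, carry antibodies from the tissue to the lumen, coat their apical side with mucins and call in leukocytes with chemokines. Much of this programme is switched on by NF-kB and by IL-17, and in the airway it is shared between club, goblet and gland cells. Thyroid follicular cells secrete in another way, storing thyroglobulin in a closed lumen, and are not known chiefly for mucosal defence.

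Between 9755081 and 16904865 reads per library had been counted on genes. The libraries fell into 2 sets that cut across the groups. One set was the 4 TFCO libraries with thyroid tissue 1, in which 44 genes reached 50 or more normalized counts throughout that were listed at 0 in the set of thyroid tissue 2 with both lungs, and 16 genes showed the reverse. None of the 8 genes described here was among them, but this count asks for 0 throughout a set and shows nothing about smaller differences. Ltf (83.8 and 1605 normalized counts) and Pigr (3.27 and 72.8) differed between thyroid tissues 1 and 2, which lie in different sets. Lung and set cannot be told apart in a comparison of TFCOs with lung, so differences to thyroid tissue 1 alone, and between thyroid tissue 2 and lung, are given where they matter. The 2 TFCO lines lie in the same set. In bulk RNA, fewer cells of a type and less RNA per cell cannot be told apart.

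Thyroid markers were present in both lines, but their sum was below that of thyroid tissue, and lower in mThy16 than in mThy14. Their summed level over 10 genes was 179279 and 116246 normalized counts in early and late mThy14 against 30292 and 25143 in mThy16. Thyroid tissues 1 and 2 held 1566805 and 2239408. The highest single gene in a TFCO library stood at 126441, so the sums lean on the strongest genes. Of these genes Tg, thyroglobulin, was 4-fold lower in mThy16 at both passages. Pax8, a thyroid transcription factor, stood at 8273 and 7560 in mThy14 and at 4259 and 3925 in mThy16. Pth, the parathyroid hormone gene, was at 0 in every TFCO library. Markers of several other cell types were summed in the same way. The 13 neutrophil markers in the table summed to 147.6 to 181 normalized counts in the TFCO libraries, against 2763 and 3409 in lung. The 7 club and goblet markers summed to 385 to 456 in TFCOs, against 278470 and 690681 in lung, with Scgb3a2 at 0 in all 4 TFCO libraries. Most of the lung sum was Scgb1a1, at 665857 in lung tissue 1 and 261418 in lung tissue 2. Muc5ac, also in this list, went the other way, at 245 to 300 in TFCOs against 26.0 and 8.09 in lung. The 10 plasma and B cell markers summed to 88.3 to 169 in TFCOs, against 518 and 1152 in thyroid and 1968 and 807 in lung. The 8 salivary and oesophageal gland markers in the table did not sum low in TFCOs, at 4037 and 8768 normalized counts in mThy14 and 4731 and 4637 in mThy16, against 1778 and 762 in thyroid and 7807 and 3739 in lung. Their highest single gene in a TFCO library stood at 7782, so the highest of these TFCO sums leans on 1 gene. Of the 8 markers, 5 passed the filter on low values. The 8 alveolar type 2 markers summed to 60941 and 12197 in mThy14 and 17527 and 16066 in mThy16, against 3651 and 9524 in thyroid. Lung stood above all of these, at 445899 and 298381. The part of these markers' cells in the levels below was not tested. Pan-epithelial markers, 7 keratins and adhesion genes, summed to 40222 and 40819 in mThy16 and to 22678 and 23391 in mThy14.

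Among the secreted antimicrobial proteins, both iron-related genes were high in mThy16. Ltf (ENSMUSG00000032496.7, GRCm38 chr9:111019271-111042767, plus strand) encodes lactoferrin, an iron-binding protein of milk, tears and airway fluid that also fills neutrophil granules. It was measured at 33.7 normalized counts in early and 405 in late mThy14, and at 52989 in early and 55098 in late mThy16. Thyroid tissue 1 had 83.8 and thyroid tissue 2 had 1605, while lung had 264 and 225 (pairs of values are given below in the order early, late or tissue 1, tissue 2). The mThy16 libraries stood far above all 6 others, whereas mThy14, thyroid and lung overlapped. The thyroid tissues differed from each other more than the lungs did.

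Lcn2 (ENSMUSG00000026822.14, chr2:32384633-32388252, minus strand) encodes lipocalin 2, which withholds iron from bacteria by binding their siderophores. Its normalized counts were 101 and 229 in mThy14, 4284 and 5130 in mThy16, 13.1 and 7.38 in thyroid, and 2625 and 1003 in lung. In this order mThy16 came first, followed by lung, mThy14 and thyroid, with no overlap between neighbours. Lcn2 was the only one of the 8 genes that was higher in all 4 TFCO libraries than in both thyroid tissues.

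Ccl20 (ENSMUSG00000026166.14, chr1:83116766-83119167, plus strand) encodes the chemokine that draws CCR6-bearing lymphocytes and dendritic cells to epithelium. Early mThy14 had 0 reads, which allows up to 4.22 normalized counts (3 reads), and late mThy14 stood at 7.29. Both mThy16 libraries held it, at 293 and 319 normalized counts. Thyroid tissues 1 and 2 had 0 reads, which allows up to 3.27 and 2.77 normalized counts, and the lung tissues stood at 9.21 and 1.35. The mThy16 libraries held 296 and 285 reads of Ccl20, and no other library held more than 11. Ccr6 itself had 0 reads in every TFCO library.

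The 250 bases before the RefSeq transcription start of these 3 genes are printed 5′ to 3′ on the gene's strand (GRCm38.p6, credited to RefSeq). Of the 8 genes, these 3 alone held a motif match, and a shared regulator was not tested. Capitals mark matches to 4 motifs searched on both strands in all 8 genes. Ccl20 lies at chr1:83116516-83116765 (plus), Ltf at chr9:111019042-111019291 (plus) and Lcn2 at chr2:32387740-32387989 (minus).

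Ccl20: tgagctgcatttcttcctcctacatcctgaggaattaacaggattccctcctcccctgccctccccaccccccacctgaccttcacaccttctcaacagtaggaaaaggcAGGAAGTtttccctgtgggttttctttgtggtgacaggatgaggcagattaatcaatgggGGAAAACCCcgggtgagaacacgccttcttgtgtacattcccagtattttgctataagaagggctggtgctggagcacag

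Ltf: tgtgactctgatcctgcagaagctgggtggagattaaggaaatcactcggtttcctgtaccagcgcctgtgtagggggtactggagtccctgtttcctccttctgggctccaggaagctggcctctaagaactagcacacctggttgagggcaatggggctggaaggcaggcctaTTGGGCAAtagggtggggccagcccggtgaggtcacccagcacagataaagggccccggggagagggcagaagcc

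Lcn2: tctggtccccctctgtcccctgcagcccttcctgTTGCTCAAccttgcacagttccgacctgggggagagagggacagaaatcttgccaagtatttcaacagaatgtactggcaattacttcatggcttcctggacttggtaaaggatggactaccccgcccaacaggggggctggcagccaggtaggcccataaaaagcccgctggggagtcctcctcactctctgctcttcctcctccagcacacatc

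The NF-kB motif GGGNNTTCC was found in Ccl20, 80 bases before the start on the reverse strand, and the ETS motif AGGAAGT 140 bases before it. The C/EBP motif TTNNGCAA was found in Ltf, 75 bases before the start, and in Lcn2, 216 bases before the start on the reverse strand. Of 27025 mouse promoter windows of this length, 4.88% held the NF-kB motif, 9.55% the C/EBP motif, 7.8% the ETS motif and 6.87% the AP-1 motif TGANTCA, which matched none of the 8 genes. Pigr, Muc1, Agr2, Gabrp and Sema3c matched none of the 4 motifs. A match is a run of letters in this window and says nothing about binding. The RefSeq starts of Ltf and Lcn2 lie inside the GENCODE gene spans given above.

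Of the genes that act at the apical surface, Pigr and Muc1 were high in mThy16 and lung. Pigr (ENSMUSG00000026417.13, chr1:130826684-130852249, plus strand) encodes the polymeric immunoglobulin receptor, which carries IgA and IgM across epithelium. Its normalized counts were 28.1 and 58.3 in mThy14, 3282 and 2631 in mThy16, 3.27 and 72.8 in thyroid, and 1344 and 470 in lung. mThy16 was above lung, lung was above mThy14, and mThy14 lay within the range of the thyroid tissues. The top of that range was thyroid tissue 2. Against thyroid tissue 1, in the same set of libraries, mThy14 was higher by 3.28 on the log2 scale. Among the markers of the cells that make its antibody cargo, the highest in a TFCO library was Derl3, at 45.6 in early mThy16.

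Muc1 (ENSMUSG00000042784.9, chr3:89229057-89233381, plus strand) encodes a membrane-bound mucin of glandular epithelium. It stood at 110 and 203 normalized counts in mThy14, 1251 and 1327 in mThy16, 47.9 and 144 in thyroid, and 4787 and 3713 in lung. Lung was highest and mThy16 next, without overlap, and mThy14 overlapped the thyroid tissues.

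Agr2 (ENSMUSG00000020581.11, chr12:35992907-36004087, plus strand) encodes a disulfide isomerase of the endoplasmic reticulum needed to make secreted mucins, and it departed from the other 7 genes. It was highest in thyroid tissue, at 198 and 200 normalized counts, and stood at 27.6 and 19.5 in lung. In TFCOs it was measured at 60.4 in early mThy14, 0 in late mThy14, 6.93 in early mThy16 and 5.59 in late mThy16. Early mThy14 was thus above both lung tissues, and the other 3 TFCO libraries were below them. The TFCO values rest on 43, 0, 7 and 5 reads, so that the order of the lines at late passage is within counting error. All 4 TFCO libraries were below both thyroid tissues.

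The last 2 genes were grouped here with secretory, airway-type epithelium and have no direct role in defence. Gabrp (ENSMUSG00000020159.8, chr11:33550781-33578959, minus strand) encodes the pi subunit of the GABA-A receptor, which is found in epithelia outside the brain. Early mThy14 had 0 reads and late mThy14 16.7 normalized counts, whereas mThy16 had 9896 and 9868. Thyroid tissue stood at 2.18 and 7.38, and lung at 1716 and 1261. mThy16 and lung were separated from each other and from the remaining libraries, and mThy14 and thyroid overlapped.

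Sema3c (ENSMUSG00000028780.13, chr5:17574281-17730268, plus strand) encodes a secreted class 3 semaphorin that guides axons and vessels and is made in the lung during branching. Its normalized counts were 0 and 5.20 in mThy14, 1912 and 2223 in mThy16, 135 and 312 in thyroid, and 3797 and 9078 in lung. The 4 sources did not overlap, in the order lung, mThy16, thyroid, mThy14. Sema3c was the one gene of the 8 for which both mThy14 libraries were below both thyroid tissues while mThy16 was above them.

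**Figure D1:**
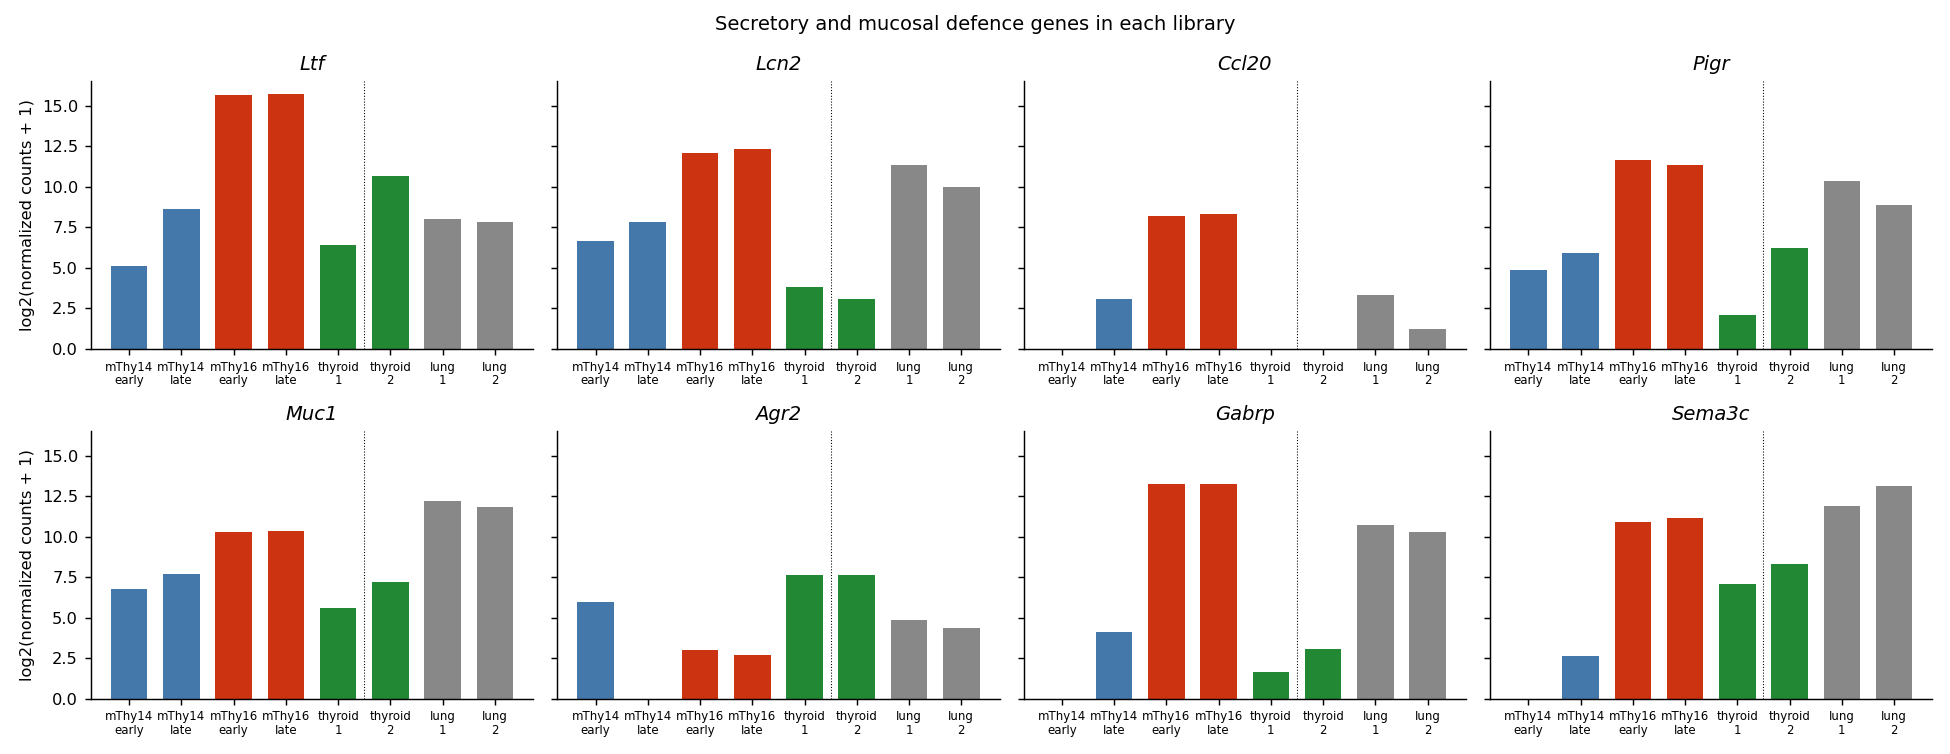
Level of each gene in each library as log2(normalized counts + 1), 1 bar per library (blue mThy14, red mThy16, green thyroid tissue, grey lung tissue). The dotted line separates the 2 sets of libraries, and the red bars are the tallest for 5 genes (Ltf, Lcn2, Ccl20, Pigr and Gabrp), lung is tallest for Muc1 and Sema3c and thyroid tissue for Agr2.

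Per kilobase of the longest transcript, the levels in mThy16 were ranked between genes, which assumes reads along whole transcripts. That is not settled, since the labels name a CEL-Seq protocol and the methods a stranded polyA kit. Without the division, Gabrp stood above Lcn2 and Sema3c above Muc1 in mThy16. Ltf led with 19318 and 20087 normalized counts per kb at early and late passage, followed by Lcn2 with 4682 and 5606 and Gabrp with 3017 and 3009. Pigr had 853 and 684 per kb, Muc1 558 and 592, Sema3c 348 and 405, Ccl20 207 and 225 and Agr2 8.84 and 7.13. In lung the highest 3 per kb were Lcn2 (2869 and 1096), Muc1 (2135 and 1656) and Sema3c (691 and 1653), in an order that differed between the 2 tissues, with Ltf at 96.2 and 82.1. Of these transcripts, the one with 50-base stretches shared with other genes was Pigr, for 1.74% of its stretches.

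The difference between the lines was then read at each passage. There is 1 culture per line, so no test was made, and a gene was counted where it differed 4-fold on the log2(normalized counts + 1) scale, in the same direction, at both passages. By this count 7 of the 8 genes were higher in mThy16 and 0 were lower. Over all 14703 genes that passed the filter, 3.07% were higher and 1.11% lower. The genes had been chosen with this contrast known, and nothing is read from the count.

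The sizes of the difference were uneven. Ltf was 1571-fold higher in mThy16 than in mThy14 at early passage (95% exact counting interval 1056 to 2452) and 136-fold at late passage (123 to 151). Pigr was 117-fold higher (75.5 to 191) and then 45.1-fold (34.6 to 60.0), and Lcn2 42.3-fold (33.5 to 54.2) and then 22.4-fold (19.6 to 25.8). Muc1 had the smallest difference of the 7 genes, at 11.4-fold (9.07 to 14.5) and 6.54-fold (5.61 to 7.65). In these 4 genes the late interval lay below the early one. Intervals and limits cover counting error only.

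Where early mThy14 had 0 reads, the early difference is a lower bound set against 3 reads in that library. Gabrp was at least 2347-fold higher in mThy16 at early passage and 593-fold at late passage (365 to 1037). Sema3c was at least 453.5-fold higher and then 427-fold (183 to 1317), and Ccl20 at least 69.5-fold and then 43.7-fold (20.9 to 109.7). Ranked by the mean of both passages on the log2 scale among the 14703 genes, Gabrp was 1, Sema3c 2, Ltf 6, Ccl20 22, Pigr 38, Lcn2 86, Muc1 320 and Agr2 7913. The genes had been chosen with this contrast known, so nothing is read from the ranks. Ccl20 passed the filter on low values through the mThy16 libraries alone. Agr2 was the exception at early passage, when mThy16 had 0.115 times the level of mThy14 (0.0435 to 0.257).

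**Figure D2:**
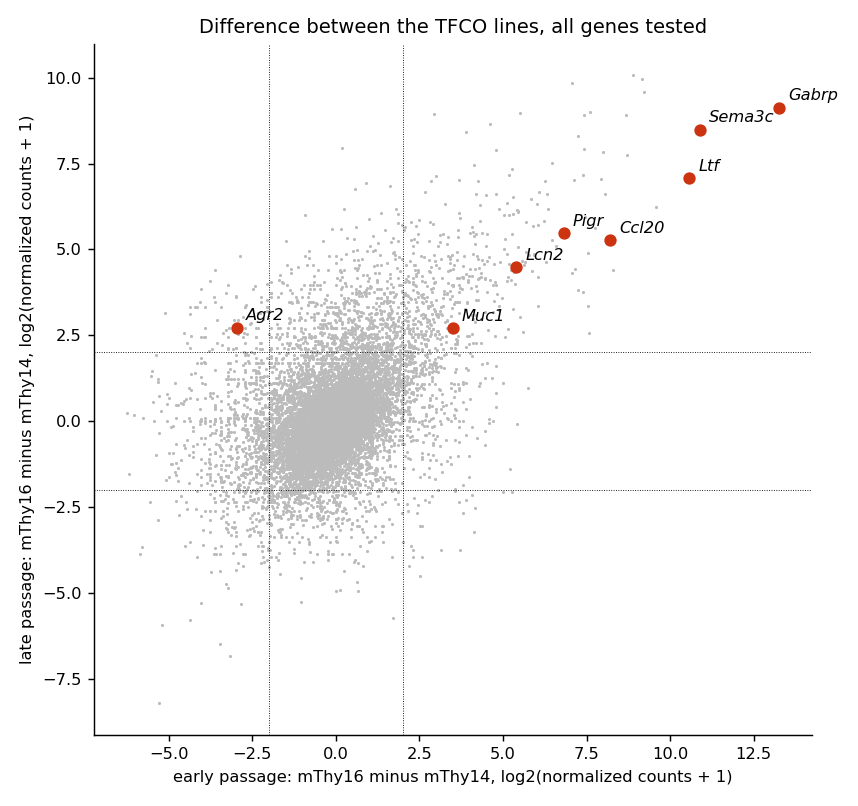
Difference mThy16 minus mThy14 in log2(normalized counts + 1) at early passage (x axis) and late passage (y axis) for all 14703 genes tested (grey) and the 8 genes described (red), with dotted lines at 4-fold. Gabrp, Sema3c and Ltf lie at the upper right end of the cloud, Muc1 just past both lines, and Agr2 to the upper left, lower in mThy16 early and higher late.

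Early and late libraries lay closer together in mThy16 than in mThy14. In mThy16 the late minus early difference of the 8 genes was −0.32 to 0.26 on the log2(normalized counts + 1) scale, with a median size of 0.17, beside 0.26 for all genes tested. In mThy14 it was −5.94 to 4.14, with a median size of 2.84, beside 0.49 for all genes, and 7 of the 8 values were higher at late passage. Gabrp, Ccl20 and Sema3c went there from 0 reads to 16, 7 and 5 reads. Their differences on this scale, and with them the median, thus rest on few reads. For Sema3c the rise was within counting error (lower limit 0.68-fold). Ltf was 12.0-fold higher in late than in early mThy14 (7.95 to 19.0), Lcn2 2.26-fold (1.73 to 3.00), Pigr 2.07-fold (1.22 to 3.65) and Muc1 1.85-fold (1.42 to 2.44). Agr2 had 43 reads in early mThy14 and 0 in late mThy14. Even so, late mThy14 stayed below early and late mThy16 for the 7 genes. Passage as such was tested over both lines with limma. The fit had no term for line, so differences between the lines entered its spread, with a standard error of 4.01 for Gabrp and 3.32 for Ltf. It called none of the 8 genes. Of all 14703 genes it called 0, or 0.0%, with 166 at an unadjusted p under 0.05, and limma's voom on recovered reads also called 0, with 84.

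Against thyroid tissue, the test averages over lines that differed widely. By limma on 2 lines against 2 tissues, with Benjamini-Hochberg adjustment, 0 of the 8 genes were higher in TFCOs and 1, Agr2, was lower. Of all genes tested, 0.599% were higher and 3.05% lower. The log2 fold change of Agr2 was −4.73 ± 0.79 (SE), and −4.73 against thyroid tissue 1 alone. It passed in 9 of 16 other settings and was lost with only the groups compared, with the TFCO libraries as separate samples, with voom, without late mThy14, without thyroid tissue 2 and without either lung tissue. Lcn2 had a log2 fold change of 6.29 ± 1.43, and 5.91 against thyroid tissue 1 alone, and did not pass, although it did without early mThy14 and with the TFCO libraries as separate samples. Gabrp (5.30 ± 3.05), Pigr (4.30 ± 2.06), Ltf (2.78 ± 2.62), Muc1 (2.39 ± 0.98) and Sema3c (−1.52 ± 2.64) did not pass either, and Ccl20 had 0 reads in both thyroid tissues. Against thyroid tissue 1 alone the difference was 6.36 for Pigr and 4.90 for Ltf. Lcn2 was higher and Agr2 lower in all 4 TFCO libraries than in both tissues, where 17.2% and 17.3% of all genes were separated in these directions.

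Line by line, 7 of the 8 genes were above both thyroid tissues in both mThy16 libraries, as were 30.9% of all genes. In mThy14 this held for 1 gene, Lcn2, and for 25.9% of all genes. On the log2 scale the difference of Gabrp to the mean of the thyroid tissues was 10.90 in mThy16 and −0.30 in mThy14. That of Pigr was 7.37 and 1.23, and that of Ltf 7.19 and −1.64. For Sema3c it was 3.32 in mThy16 and −6.37 in mThy14. Against thyroid tissue 1 alone the differences of mThy16 ranged from 3.92 (Sema3c) to 11.60 (Gabrp) among these 4 genes. In mThy14 that of Ltf was then 0.49 and that of Pigr 3.28.

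Against lung, where tissue and library set cannot be told apart, limma called 0 of the 8 genes in TFCOs, beside 9.83% of all genes higher and 13.5% lower. Muc1 (log2 fold change −3.26 ± 0.98) and Sema3c (−6.36 ± 2.64) were lower in all 4 TFCO libraries than in both lungs, as were 33.3% of all genes. Muc1 passed in 8 of 16 other settings, among them the fits without late mThy16 and without either thyroid tissue. Both mThy16 libraries were above both lungs for 5 of the 8 genes (43.1% of all genes), namely Ltf, Lcn2, Pigr, Ccl20 and Gabrp. Both mThy14 libraries were below both lungs for 5 genes (39.1% of all genes), namely Lcn2, Pigr, Muc1, Gabrp and Sema3c. Between the tissues, Lcn2 (−7.23 ± 1.43) and Muc1 (−5.65 ± 0.98) were called lower in thyroid than in lung, and no gene of the 8 was called higher, beside 3.16% and 2.89% of all genes. Both calls were lost with voom, without thyroid tissue 1 and without either lung tissue, and that of Lcn2 also without thyroid tissue 2. Both thyroid tissues were below both lungs for 6 of the 8 genes (27.5% of all genes) and above them for Agr2 alone (26.2% of all genes). Within their set, the difference of thyroid tissue 2 to lung was −7.60 for Lcn2 and −4.86 for Muc1.

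Lists of genes with related roles were then counted in the same way between the lines. They had been chosen with earlier results of these data known, so the counts are a description and not support. The epithelial NF-kB and IL-17 response held the most: 11 of its 27 tested genes were 4-fold higher in mThy16 at both passages and 0 were lower. Of all genes tested, 3.07% were higher and 1.11% lower. The median difference of the list was 0.85 on the log2 scale, beside −0.04 for all genes. Cxcl17, a mucosal chemokine, was at 11.2 and 6.25 normalized counts in mThy14 and at 824 and 734 in mThy16. Csf3, the growth factor of neutrophils, had 11.2 and 10.4 against 634 and 637. The neutrophil-attracting Cxcl2 had 7.03 and 0 against 220 and 235.

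Regulators of the same pathway were divided. Nfkbia, its main feedback inhibitor, did not reach 4-fold, at 1401 and 1022 normalized counts in mThy14 and 2259 and 2061 in mThy16. Among the higher genes, Nfkbiz, an inducible cofactor of NF-kB that acts on Lcn2, stood at 223 and 66.6 normalized counts in mThy14 and at 1332 and 1262 in mThy16. Zc3h12a, an RNase that ends cytokine messages, stood at 29.5 and 51.0 against 560 and 443. Tnfaip3, the deubiquitinase A20, stood at 112 and 68.7 against 530 and 447. Cxcl1, Cxcl3, Ccl28, Il33 and Steap4 completed the 11 genes. The subunit Relb and the receptors Il17ra and Il17re were not among them, with Il17ra at 221 and 286 in mThy14 and 226 and 192 in mThy16. None of the 27 genes was called between TFCOs and thyroid tissue.

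Of 15 secreted antimicrobial and protease inhibitor genes, 3 were 4-fold higher in mThy16 and 0 lower, beside 3.07% and 1.11% of all genes. The 15 genes had a median difference of 1.12, and the higher genes were 3. They were Pglyrp1, a peptidoglycan-binding protein, at 8.43 and 6.25 normalized counts in mThy14 and 359 and 317 in mThy16, the protease inhibitor Slpi, at 2.81 and 3.12 against 61.4 and 59.2, and the acute-phase gene Saa1. Wfdc2, another inhibitor of this family, was high in both lines, at 2812 and 4367 in mThy14 and 2473 and 2227 in mThy16. Of 7 other mucins tested, 0 differed 4-fold between the lines in either direction. Muc5ac, the gel-forming mucin of goblet cells, stood at 245 to 300 normalized counts in all 4 TFCO libraries and at 196 in thyroid tissue 1, but at 0.922 in thyroid tissue 2 and 26.0 and 8.09 in lung, so that it followed the set of libraries.

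Each of the remaining lists held at most 2 such genes in a direction, beside 3.07% of all genes higher and 1.11% lower. Nothing is read from counts this small, and the genes are named as a description. Of 16 goblet and club secretory genes, 2 (Clca1 and Cftr) were higher in mThy16 and 0 lower. Of 24 enzymes of mucin-type O-glycosylation, 1 (Fut2, a fucosyltransferase) was higher and 1 (St6galnac2, a sialyltransferase) lower. Among 17 glandular transcription factors the pioneer factor Foxa1 was the 1 higher gene, at 111 and 15.6 normalized counts in mThy14 and 551 and 494 in mThy16. Among 19 receptors and partners it was the lipopolysaccharide co-receptor Cd14, with 4.22 and 1.04 in mThy14 and 899 and 978 in mThy16. Of 17 class 3 semaphorins and GABA-A receptor subunits, 1 was higher and 1 lower, with a median of −0.29. The higher gene was Sema3e, at 26.7 and 65.6 normalized counts in mThy14 and 254 and 283 in mThy16. The keratins Krt7 and Krt4 from the marker lists were higher as well.

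**Figure D3:**
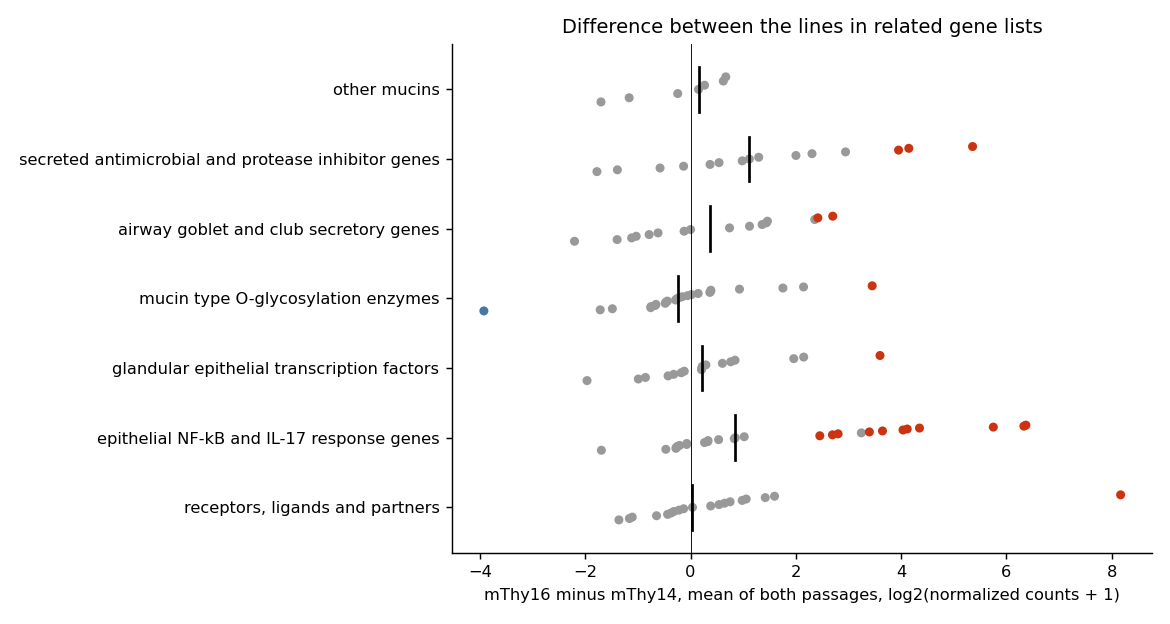
Difference mThy16 minus mThy14, as the mean of both passages in log2(normalized counts + 1), for each tested gene of 7 related lists, with red for 4-fold higher and blue for 4-fold lower at both passages and a black bar at the list's median. The NF-kB and IL-17 response holds 11 red points, more than any other list, and the largest single difference is that of Cd14 among the receptors and partners. The lists were chosen with earlier results of these data known.

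**Figure D4:**
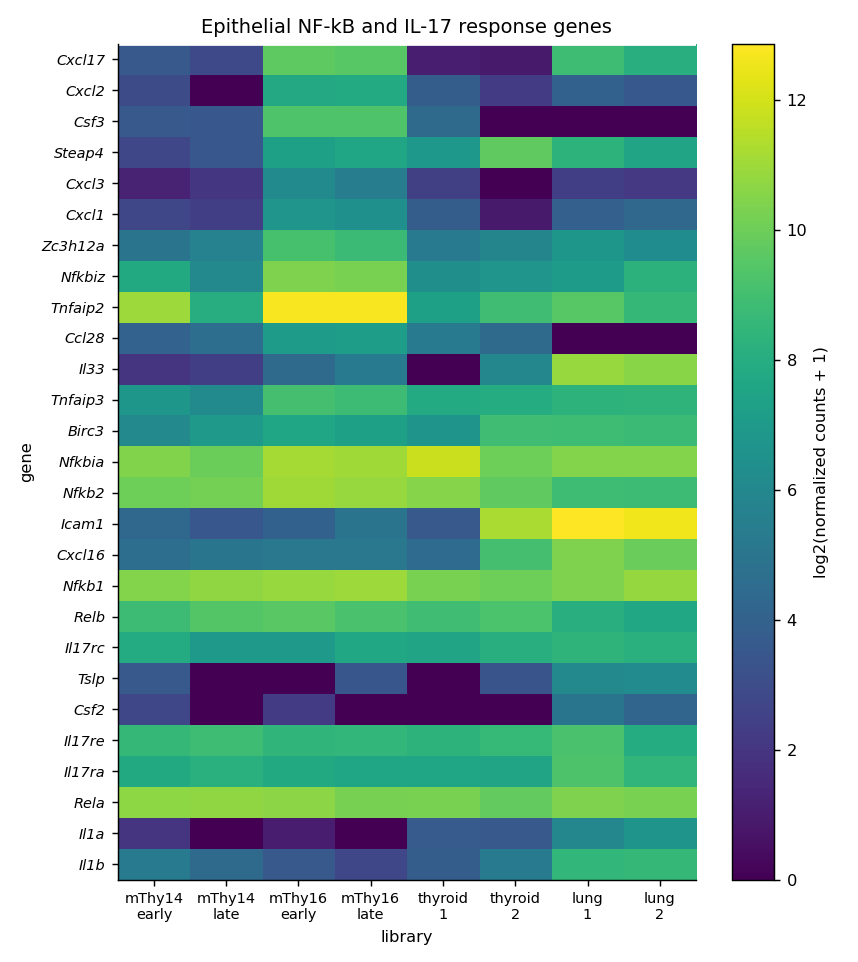
Level of the 27 tested NF-kB and IL-17 response genes in each library as log2(normalized counts + 1), ordered from the largest difference between mThy16 and mThy14 at the top to the smallest at the bottom. The upper rows, such as Cxcl17, Cxcl2 and Csf3, are brighter in both mThy16 columns than in both mThy14 columns, and the lower rows, such as Il17ra and Rela, are alike in the 4 TFCO columns.

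Some genes of these lists were called in TFCOs of both lines against thyroid tissue (limma, adjusted over all genes tested). The epithelial ETS factors Ehf and Elf5 rose, with log2 fold changes of 3.95 ± 0.52 (adjusted p = 0.0119) and 3.56 ± 0.68 (adjusted p = 0.0394). Cebpd, a C/EBP factor, rose by 2.91 ± 0.34 (adjusted p = 0.00825). Ehf ranged from 1883 to 9155 normalized counts in the TFCO libraries, against 183 and 455 in thyroid, and Cebpd from 2261 to 4709, against 366 and 382. Over 16 other ways to process the data, Ehf and Cebpd passed in 16 and Elf5 in 11. Elf5 was lost without thyroid tissue 2, where its adjusted p was highest (adjusted p = 0.154), and without either lung tissue.

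The genes that fell were Bpifa1, a secreted airway defence protein (−6.97 ± 1.42, adjusted p = 0.0477), the lipoprotein receptor Lrp1 (−3.22 ± 0.44, adjusted p = 0.0133), the semaphorin receptor Plxnd1 (−2.01 ± 0.37, adjusted p = 0.0363) and Sema3b (−2.02 ± 0.41, adjusted p = 0.0461). Bpifa1 and Sema3b each passed in 8 of the 16 other settings, Plxnd1 in 10 and Lrp1 in 15. Bpifa1, Plxnd1 and Sema3b were lost without thyroid tissue 2 and without either lung tissue, and Bpifa1 and Sema3b also without late mThy14, Sema3b also without early mThy16. Against thyroid tissue 1 alone, within the same set of libraries, the differences were −4.69 for Bpifa1, −3.71 for Lrp1, −1.89 for Plxnd1 and −2.11 for Sema3b. From the lists of other cells, the surfactant-related genes Sftpb, Sftpd and Slc34a2 were higher in TFCOs, by 7.03 to 8.65 on the log2 scale. Pth, Calca and Chga of parathyroid and C cells and the plasma cell gene Derl3 were lower, with log2 fold changes from −4.79 (Derl3) to −13.83 (Pth).

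The genes whose pattern over the 8 libraries was nearest to the mean of the 8 described genes were sought by the root mean squared difference of row-centred log2 values, among genes that reached 100 normalized counts in some library. The 6 nearest were Steap2 (0.72), Steap1 (0.82), Cldn1 (0.92), Mboat1 (1.00), Ankrd1 (1.01) and Cfap126 (1.03), beside a median of 2.84 for all genes tested. Steap1 and Steap2 encode membrane metalloreductase family proteins, and Cldn1 a tight junction claudin. Steap2 had 2.81 and 29.1 normalized counts in mThy14, 545 and 646 in mThy16, 26.1 and 24.0 in thyroid and 323 and 271 in lung. The described genes themselves lay at 1.05 (Pigr) to 2.65 (Sema3c) from their mean, except for Agr2 at 4.24.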

How the data were processed

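RNA of TFCO lines mThy14 and mThy16 at early and late passage, 2 thyroid tissues and 2 lung tissues was measured. The authors deposited 1 table of normalized counts, a signal made by dividing read counts per gene by 1 size factor per library. The methods give a stranded polyA kit, paired-end reads and DESeq2 as what the authors used, while the labels name a CEL-Seq protocol. The submitters' processing notes name BWA 0.6.2-r126 and the builds hg38 and mm10. The counter and the annotation are not given in the sources used here. Kit, counting and annotation can shift levels between genes. All values above 0 (100%) were whole multiples of 1 step per library (within 0.01 read), so reads could be recovered.

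The tests used limma 3.58.1 (R 4.3.3) on log2(normalized counts + 1), with a trend and Benjamini-Hochberg adjustment (threshold 0.05), over 14703 genes that had 2 libraries with 10 normalized counts or more. The pseudocount, 1, understates changes of weak genes. Late against early TFCOs was fitted on all 8 libraries by group, without a term for line. In the other comparisons the log2 values of a line's passages were averaged first. The early and late libraries of a line pair through the shared culture, and the differences between the lines correlated at 0.48 across 14703 genes between passages. Fits were tested on simulated data. Planned count models were not run, since a check on units did not accept the step of early mThy16 (0.99). The data had been seen when voom on recovered reads and the alternatives for the lines were added. Other alternatives changed the pseudocount, filter, scaling, libraries fitted and block. Ratios of single libraries carry exact binomial 95% intervals on reads.

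The genes and the related lists were chosen with earlier results of these data known. Named are the 10 genes, list genes past the threshold against thyroid tissue (at most 4 per direction and list), defining markers of other cells and the 6 nearest profiles. List genes 4-fold apart between the lines, and list genes named for comparison, were chosen after their values were seen. Symbols and positions are from GENCODE M21 (15883 symbols matched) and promoters from RefSeq. Table columns of other samples numbered 0. Of the list genes, 1 is not reported here.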

Additional observations from a re-analysis of the deposited data

How the results depend on the processing

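Counts of called genes depended on the libraries in each fit more than on the scale. For late against early TFCOs the count was 0, between 0 and 2 when leaving out 1 library in turn (2 without late mThy16), and 0 with the TFCO line as a replicate block (224 genes at an unadjusted p under 0.05), so the pairing changed no call. For TFCOs against thyroid tissue it was 536, but 124 with only the groups compared, 1322 with TFCO libraries as separate samples, 232 with voom, and 153 to 4085 when leaving out 1 library (4085 without thyroid tissue 1, 161 without thyroid tissue 2, 156 and 153 without lung tissues 1 and 2). For TFCOs against lung it was 3435, but 6979 with only the groups compared, 6625 with separate libraries, and 248 to 6986 when leaving out 1 library. For thyroid against lung it was 889, but 277 with only the groups compared and 58 to 4311 when leaving out 1 library. Between the lines, 452 genes were 4-fold higher in mThy16 at both passages, 798 at early passage and 1291 at late passage, and 163 were lower, 72 with a pseudocount of 5, 870 at early and 581 at late passage. The cause of these shifts was not tested.

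Of the 8 genes, 7 were 4-fold higher in mThy16 under every alternative run, and 8 at late passage alone, where Agr2 joined with 5 reads against 0. Quantile normalization moved the median of all genes by 0.13 against thyroid and 0.27 against lung. No log2 fold change of the 8 genes changed sign against thyroid (136 values) or lung (128 values), but 15 of 128 did for passage, 14 of them without early mThy14 or without late mThy16, which leaves the lines unequally represented, and 1 of 128 for thyroid against lung.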

Other observations

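Other genes also set the lines apart widely, and the 3 with the largest mean difference outside the lists are given here, chosen after their values were seen. Spp1, osteopontin, was at 12.6 and 8.33 normalized counts in mThy14, 7759 and 9351 in mThy16, 356 and 454 in thyroid and 371 and 505 in lung. Igfbp7 had 11.2 and 9.37 in mThy14, 7265 and 7933 in mThy16, 3471 and 3495 in thyroid and 5862 and 7695 in lung. Cpe, carboxypeptidase E, had 9.84 and 4.16 in mThy14, 5111 and 5539 in mThy16, 1757 and 1481 in thyroid and 1166 and 606 in lung. For all 3 genes, thyroid tissue lay between the lines, far above mThy14 and below mThy16, and for Spp1 and Cpe mThy16 was above every other library.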
